A study of Homo sapiens with 18 samples.

Results

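SP1 binding at promoters was examined in ZR751 cells, an established ER+ breast cancer cell line, as the set of promoter regions among the strongest SP1 ChIP-seq peaks. The members were chosen by the SP1 signal itself: the 5000 peaks with the highest signal in each of the 4 SP1 libraries were merged where they overlapped by at least 1 bp, and merged regions were kept when their midpoint lay within 1 kb of the transcription start site of a protein-coding gene. This gave 3676 promoter regions of 18289 merged regions in all, next to 4145 of 19785 protein-coding genes. The presence and rank of these regions in the SP1 libraries are therefore descriptions, with no test.

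ZR751shMLL3 cells (genotype shMLL3) were stably transduced with a pLVTH lentivirus that carries a single short hairpin RNA against MLL3 (KMT2C), and ZR751shLucif cells (genotype shLucif/control) carried a luciferase hairpin instead. Both lines came from the same breast cancer cell line ZR75-1, were flow sorted for GFP after transduction, and were used at steady state and at early passage. A single hairpin stands for the KD, so an effect of MLL3 and one of that hairpin or line cannot be told apart. SP1, ERα, H3K4me1 and RNA were each measured in 2 replicate libraries per cell line. The replicates of both assays are described as biological, those of ChIP as 1 experimental repetition, and p-values measure only the spread between these libraries. SP1 was immunoprecipitated with Abcam ab13370, and peaks were called in each library alone against 1 input per cell line.

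The KD target KMT2C had 2.34 and 6.77 FPKM (read fragments scaled to transcript length and library) in the ZR751shLucif RNA libraries and 1.07 and 2.69 in the ZR751shMLL3 libraries. The ranges of the cell lines overlapped, with a log2 fold change of -1.02 (SE 0.544, limma adjusted p = 0.629). KMT2C had no SP1 peak within 1 kb of a start site at any rank, and was not a member. SP1 RNA was 16.7 and 23.7 FPKM in the control line and 13.7 and 18.3 in the KD line, and ESR1 RNA 11.2, 14.2, 12.1 and 10.8 in the same order. ESR1 was not a member, as its start sites ranked 51783 at best in ZR751shLucif replicate 2, 143524 in ZR751shMLL3 replicate 1 and 47450 in ZR751shMLL3 replicate 2, and had no listed peak in ZR751shLucif replicate 1.

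The ZR751 label was then checked against cell type markers. All 9 luminal markers had at least 10.8 FPKM in every library, and KRT8 had 1652 to 4573. The basal markers KRT5, KRT14 and TP63 reached 0.101 FPKM at most, the leukocyte markers PTPRC and CD3E 0.0318, and the endothelial marker VWF 0.256, while PECAM1 had no matched row. Of the fibroblast markers, COL1A1 had 13.1 to 17.8 FPKM, whereas COL1A2 and PDGFRB reached 0.104 at most. ZR751shLucif replicate 1 stood apart among the RNA libraries. Its median absolute log2 difference to the other 3 was 0.417 to 0.472, against 0.21 to 0.34 among those 3.

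SP1 is a ubiquitous zinc-finger transcription factor. It binds GC boxes, short GC-rich elements found in many promoters within CpG islands, and is known for its part in the transcription of housekeeping genes. GC-box promoters often also hold a CCAAT box, which the trimeric factor NF-Y binds, and ERα can be recruited to some GC boxes through SP1.

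The sequences under 8 of the named regions are shown because they differ in which of these elements they hold. Each line gives the summit of the region's best-ranked peak with 100 bp on each side, on the strand of the nearest gene and in GRCh37 (hg19) coordinates, and none of the 8 overlaps an annotated exon. Capitals mark the GC box core (GGGCGG or its complement CCGCCC) and the CCAAT box (CCAAT or its complement ATTGG), and matches that overlap run together. The first 5 regions were in the top 5000 of all 4 libraries, MIGA2 in both ZR751shMLL3 libraries and neither ZR751shLucif library, KDM2A in both ZR751shLucif libraries and neither ZR751shMLL3 library, and DHX37 in ZR751shLucif replicate 1 only.
ZNF687, chr1:151253757-151253957, plus strand: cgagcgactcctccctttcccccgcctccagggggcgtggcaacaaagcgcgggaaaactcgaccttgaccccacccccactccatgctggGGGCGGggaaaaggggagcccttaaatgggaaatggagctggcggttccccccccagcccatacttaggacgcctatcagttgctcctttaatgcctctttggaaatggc
CIC, chr19:42772897-42773097, plus strand: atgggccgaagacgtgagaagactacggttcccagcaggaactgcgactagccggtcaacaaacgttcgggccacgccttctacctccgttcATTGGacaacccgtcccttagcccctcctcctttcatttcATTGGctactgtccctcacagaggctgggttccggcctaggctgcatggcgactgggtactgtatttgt
EVI5L, chr19:7894787-7894987, plus strand: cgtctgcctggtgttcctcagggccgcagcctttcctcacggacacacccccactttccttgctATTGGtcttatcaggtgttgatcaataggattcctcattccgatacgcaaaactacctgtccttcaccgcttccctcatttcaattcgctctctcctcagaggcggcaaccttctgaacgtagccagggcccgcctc
SP1, chr12:53773713-53773913, plus strand: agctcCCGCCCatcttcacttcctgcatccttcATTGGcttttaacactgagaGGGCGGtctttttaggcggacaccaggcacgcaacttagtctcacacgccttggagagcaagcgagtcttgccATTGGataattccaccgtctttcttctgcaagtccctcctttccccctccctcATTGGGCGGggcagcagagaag
SP2, chr17:45973211-45973411, plus strand: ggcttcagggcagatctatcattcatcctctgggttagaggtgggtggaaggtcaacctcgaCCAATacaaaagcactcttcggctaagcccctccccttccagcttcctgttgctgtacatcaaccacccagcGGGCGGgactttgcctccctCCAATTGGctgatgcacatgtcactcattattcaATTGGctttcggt
MIGA2, chr9:131798695-131798895, plus strand: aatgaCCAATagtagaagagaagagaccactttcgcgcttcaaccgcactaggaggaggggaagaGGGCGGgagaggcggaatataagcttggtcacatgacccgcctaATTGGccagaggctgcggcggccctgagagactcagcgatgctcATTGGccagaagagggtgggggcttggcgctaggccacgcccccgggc
KDM2A, chr11:67007289-67007489, plus strand: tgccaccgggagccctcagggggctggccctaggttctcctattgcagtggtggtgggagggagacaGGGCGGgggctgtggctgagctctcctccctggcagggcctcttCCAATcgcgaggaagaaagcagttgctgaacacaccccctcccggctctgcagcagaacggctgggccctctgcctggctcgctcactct
DHX37, chr12:125473741-125473941, minus strand: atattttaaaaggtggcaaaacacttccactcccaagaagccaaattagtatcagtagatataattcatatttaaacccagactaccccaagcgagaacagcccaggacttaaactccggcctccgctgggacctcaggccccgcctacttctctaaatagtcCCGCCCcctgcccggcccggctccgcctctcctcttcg

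The windows of CIC and EVI5L, which ranked among the strongest in every library, held 0 GC box cores, with 2 and 1 CCAAT boxes. The window of ZNF687 held 1 GC box core and 0 CCAAT boxes. The window at the SP1 gene itself held 3 of each, and that of SP2 held 1 GC box core and 4 CCAAT boxes. The CIC and KDM2A windows lie between annotated exons within those genes, and the other 6 overlap no protein-coding gene. All 8 summits were upstream of the nearest start site, at -110 bp (MIGA2) to -918 bp (ZNF687).

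The SP1 libraries were not alike, and ZR751shMLL3 replicate 2 stood apart. Of its 5000 top peaks, 81.2% (95% Wilson interval, 80.1 to 82.3) lay at promoters. In ZR751shLucif replicate 1 this share was 6.24% (5.6 to 6.94), in ZR751shLucif replicate 2 it was 6.96% (6.29 to 7.7), and in ZR751shMLL3 replicate 1 it was 7.62% (6.92 to 8.39). The intervals cover counting error only, and the read depth behind single peaks is not in the peak lists. The authors' FDR also separated the libraries. No peak of the ZR751shLucif lists reached an FDR of 0.01, their lowest FDR being 2.9% and 6.22%, whereas all of the 5000 top peaks in both ZR751shMLL3 lists did. In ZR751shMLL3 replicate 1, however, 204178 of the 209985 listed peaks reached it, against 12065 of 300000 in ZR751shMLL3 replicate 2. The FDR thus did not set the 5000 top peaks of ZR751shMLL3 replicate 1 apart from the rest of its list. The highest signal of a peak was 31.46 and 27.5 in the ZR751shLucif lists and 32.42 and 135.7 in the ZR751shMLL3 lists, so that it too was apart in ZR751shMLL3 replicate 2. In the paper's reproducibility check within single libraries, ZR751shMLL3 replicate 2 gave many more SP1 peaks than any other library. Whether the immunoprecipitations differed in strength was not tested, and the low promoter shares of the other 3 libraries do not show that SP1 was absent from those promoters. The main results are therefore also given without the regions that ZR751shMLL3 replicate 2 alone brought in.

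Promoters were most frequent among the strongest peaks in 3 of the 4 libraries. Among the 100 top peaks, 46 and 61 were at promoters in ZR751shLucif replicates 1 and 2, 68 in ZR751shMLL3 replicate 1 and 88 in ZR751shMLL3 replicate 2. The share then fell away within the first 1000 ranks in 3 of the libraries, to 6.2%, 7.2% and 9% between ranks 500 and 1000. It was 90.8% in ZR751shMLL3 replicate 2 at those ranks, and 76.1% between ranks 2000 and 5000. The plot of promoter share by rank shows this difference as a plateau in a single library.

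**Figure D1:**
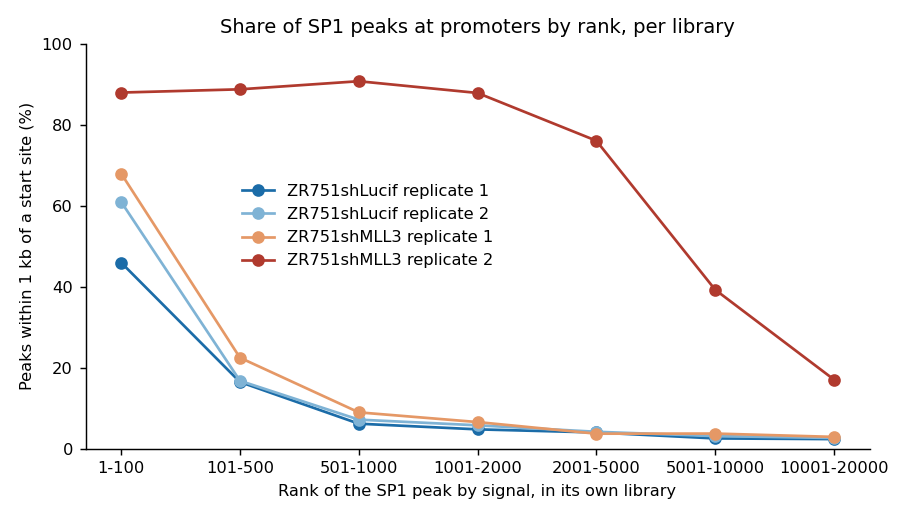
Percentage of SP1 peaks whose midpoint lies within 1 kb of a protein-coding start site, by rank of the peak in its own library; points are single libraries. ZR751shMLL3 replicate 2 stays between 76.1% and 90.8% down to rank 5000, whereas the other 3 libraries start between 46% and 68% and are under 10% beyond rank 500.

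Peaks ranked between 5000 and 10000 were not used to choose the members. There the promoter share was 2.56% and 3.14% in the ZR751shLucif libraries and 3.76% and 39.3% in the ZR751shMLL3 libraries. Both ZR751shMLL3 values lay above both ZR751shLucif values, by 18.7 percentage points on average (2.85% ± 0.41 against 21.5% ± 25.1, SD, n = 2 each). An exact permutation test, two-sided, gave p = 0.33, the smallest p that 2 libraries against 2 allow. Without ZR751shMLL3 replicate 2 the difference was 0.91 percentage points, and without ZR751shMLL3 replicate 1 it was 36.4.

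Consequently, most of the promoter regions rested on 1 library. ZR751shMLL3 replicate 2 had 3427 of the 3676 promoter regions in its top 5000, and 2871 regions, 78.1% of the 3676, were in its top 5000 and in no other. The other libraries had 311, 348 and 380. In the top 5000 of all 4 libraries were 48 regions, in 3 libraries 132 and in 2 libraries 382. Another 243 were in the top 5000 of ZR751shLucif replicate 1, ZR751shLucif replicate 2 or ZR751shMLL3 replicate 1 alone. Leaving out ZR751shMLL3 replicate 2 altogether gave 811 promoter regions, of which 48 were in all 3 of the other libraries.

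The part of each library's promoter regions that other libraries shared depended on the size of the lists. The ZR751shLucif libraries shared 91 promoter regions, 29.3% of those in replicate 1 and 26.1% of those in replicate 2. ZR751shLucif replicate 1 and ZR751shMLL3 replicate 1 shared 99 (31.8% and 26.1%). ZR751shMLL3 replicate 2 contained 78.1%, 72.7% and 75.5% of the promoter regions of ZR751shLucif replicates 1 and 2 and ZR751shMLL3 replicate 1, and these were 7.09%, 7.38% and 8.37% of its own. Most regions in 1 of those 3 libraries alone lay away from promoters. Of the merged regions in a single library's top 5000, 1.39%, 1.92% and 1.91% lay at promoters for ZR751shLucif replicates 1 and 2 and ZR751shMLL3 replicate 1, while 81.4% of the 59 regions in all 4 libraries did.

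**Figure D2:**
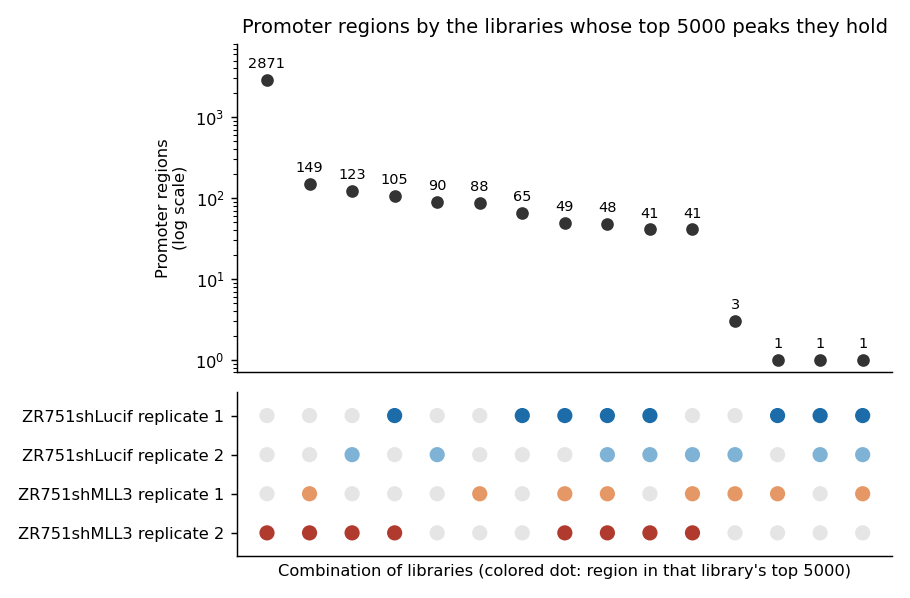
Number of SP1 promoter regions (vertical axis, log scale, values printed above the points) for each combination of libraries whose 5000 top peaks hold the region (colored dots below). The largest group, 2871 regions, is ZR751shMLL3 replicate 2 alone, and 48 regions are in all 4 libraries.

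The regions shared by all 4 libraries sit at promoters of genes with a wide range of functions. The 8 with the lowest mean rank were at ZNF687, CDCA2, CIC, SLC25A44, EVI5L, H4C16, OS9 and FH. ZNF687, a zinc-finger protein gene, ranked 21 and 6 in the ZR751shLucif libraries and 25 and 5 in the ZR751shMLL3 libraries. CDCA2, which recruits protein phosphatase 1 to chromatin in mitosis, shares its region with KCTD9 on the opposite strand and ranked 13, 22, 15 and 16 in the same order. CIC, a transcriptional repressor, ranked 12, 30, 8 and 34. These 3 regions were among the 34 top SP1 peaks of every library.

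SLC25A44, a mitochondrial carrier of branched-chain amino acids, ranked 34, 19, 10 and 28 (ZR751shLucif replicates 1 and 2, then ZR751shMLL3 replicates 1 and 2). EVI5L, a Rab GTPase-activating protein, ranked 37, 7, 34 and 67, and H4C16, a histone H4 gene, ranked 40, 23, 18 and 65. OS9, which works in endoplasmic reticulum-associated degradation, ranked 32, 91, 4 and 31. FH, the fumarate hydratase of the citric acid cycle, ranked 31, 49, 3 and 78. None of these 8 regions had a rank above 91 in any library. The SP1 gene itself was also a member in all 4 libraries, with ranks 242, 1279, 30 and 330, as was its paralog SP2, with ranks 2856, 107, 26 and 128.

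Regions in both libraries of 1 cell line and in neither library of the other were uneven in number. Both ZR751shMLL3 libraries and neither ZR751shLucif library had 149, and both ZR751shLucif libraries and neither ZR751shMLL3 library had 1. The latter was at KDM2A (ranks 340 and 45), a lysine demethylase of CpG islands, with 0 peaks listed at any rank in the ZR751shMLL3 libraries. The first 5 of the former were at VAMP1 (ranks 48 and 4 in the ZR751shMLL3 libraries), AZIN1 (59 and 60), SPATC1L (94 and 33), TOM1 (77 and 132) and MIGA2 (194 and 64). Each of these 5 had a peak at a lower rank in at least 1 ZR751shLucif library. VAMP1, a vesicle SNARE, ranked 9777 in ZR751shLucif replicate 1, and AZIN1, which raises ornithine decarboxylase activity, ranked 15399 and 21118. ZR751shMLL3 replicate 2 with 1 ZR751shLucif library gave 105 and 123 regions, which is of the same order as the 149 it gave with the other ZR751shMLL3 library.

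The best-ranked region of each library that was in its top 5000 alone was DHX37, an RNA helicase, at rank 134 in ZR751shLucif replicate 1, and DMAP1, a subunit of chromatin-remodeling complexes, at rank 59 in ZR751shLucif replicate 2. In ZR751shMLL3 replicate 1 it was HEXIM1, an inhibitor of P-TEFb, at rank 140, and in ZR751shMLL3 replicate 2 it was TENT5C, a noncanonical poly(A) polymerase, at rank 17. TENT5C was nevertheless listed in all 4 libraries, at ranks 24084, 5338 and 17475 in the other 3, and the window of 100 bp on each side of its summit held 6 GC box cores.

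The thresholds cut through a continuous series of values. The last promoter peak inside the top 5000 of ZR751shMLL3 replicate 2 was at KLHL20 (rank 5000, signal 10.67), and the first outside was at OCIAD1 (rank 5002, signal 10.67). In ZR751shLucif replicate 1 these were MAPK10 (rank 4969, signal 7.148) and DYNLRB1 (rank 5071, signal 7.131), in ZR751shLucif replicate 2 KLHL7 (rank 4963) and GPN3 (rank 5013), both with a signal of 6.175, and in ZR751shMLL3 replicate 1 CCDC40 (rank 4991, signal 5.024) and PHF20L1 (rank 5094, signal 5.022). Each list has its own signal scale. By distance, the farthest region inside was 996 bp from the start site of SINHCAF and the nearest outside was 1003 bp from that of PSMB10.

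The regions brought in by ZR751shMLL3 replicate 2 alone could be looked up at lower ranks of the other lists. In a 500-bp window around each of these 2871 regions, 27.3%, 25.9% and 26.5% had a peak at any rank in ZR751shLucif replicates 1 and 2 and ZR751shMLL3 replicate 1. Windows of the same length at the canonical start sites of the 15640 genes with no SP1 region had one in 6.23%, 7.3% and 4.95%. Counting only the 50000 top peaks of each list, the shares were 8.29%, 8.95% and 11.4% for these regions and 1.01%, 1.14% and 1.44% for the other genes. The share was higher for the regions than for the other genes in all 3 lists, and no more than 11.4% of the regions were among the 50000 top peaks of any of them. These sets were not matched for expression. Of genes with an FPKM value, 95.1% of those at these regions and 51.7% of the others had a mean of at least 1. The part of expression in this difference was not tested.

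Agreement with the other libraries followed the rank in ZR751shMLL3 replicate 2. Of its 88 promoter peaks at ranks 1 to 100, 45.5%, 45.5% and 54.5% overlapped a top 5000 peak of ZR751shLucif replicates 1 and 2 and ZR751shMLL3 replicate 1. Of its 2284 promoter peaks between ranks 2000 and 5000, 3.77%, 3.5% and 4.12% did. The shares fell with rank in all 3 libraries, of either cell line.

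The promoter regions lay close to the start site, mostly on its upstream side. The median signed distance of the midpoint was -62 bp, 80.4% of regions were within 250 bp and 71.6% were upstream. Regions in a single library other than ZR751shMLL3 replicate 2 were more spread out, with 42.8% within 250 bp, against 82.7% of the regions of ZR751shMLL3 replicate 2 alone and 72.9% to 88.6% of those in 2 to 4 libraries. Member genes often faced another gene. A protein-coding gene on the opposite strand started within 1 kb of the canonical start site of 21.8% of the 4145 member genes, of 6.78% of the 15640 other genes and of 11.2% of the 7279 other genes with a mean FPKM of at least 1. In genes of regions found in 2, 3 and 4 libraries, this share was 23.6%, 32.7% and 24.6%.

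GC boxes and CCAAT boxes both concentrated at the SP1 summits. The GC box core was within 100 bp of the summit in 66.5% of all members, and in 14.7% of windows of the same length placed 1000 bp away. The CCAAT box was in 37.8% and 21.9%. Median GC content was 65.2% in the summit windows and 48.3% at 1000 bp, and its part in this difference was not tested. The GC box core was about as frequent in regions of ZR751shMLL3 replicate 2 alone (68.9%) as in those of 2, 3 or 4 libraries (72.5%, 68.2% and 75%). The CCAAT box was in 34.6% of the former, and in 53.4%, 58.3% and 66.7% of the latter. In regions found in 1 other library only, the GC box core was in 26.7% and the CCAAT box in 33.3%, with a median GC content of 49.8%.

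In ZR751shMLL3 replicate 2 the CCAAT box became less frequent toward lower ranks. It was in 55.7% of the promoter peaks at ranks 1 to 100, in 39.7% between ranks 1000 and 2000, in 28.5% between ranks 2000 and 5000, and between ranks 5000 and 10000, which were not used to choose the members, in 22.9%. The GC box core went from 81.8% to 61.9% and 52.2% at the first and the last 2 of these rank ranges. Median GC content was nearly level across them, from 66.2% to 64.7%. In the other 3 libraries the 100 top peaks gave the CCAAT box in 59% to 64.7% of their promoter windows and the GC box core in 67.6% to 71.7%. Between ranks 5000 and 10000 the CCAAT box was in 44.5%, 42.7% and 37.2% of ZR751shLucif replicates 1 and 2 and ZR751shMLL3 replicate 1. The decline was uneven there, with 58.7% still in ZR751shLucif replicate 1 between ranks 2000 and 5000.

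**Figure D3:**
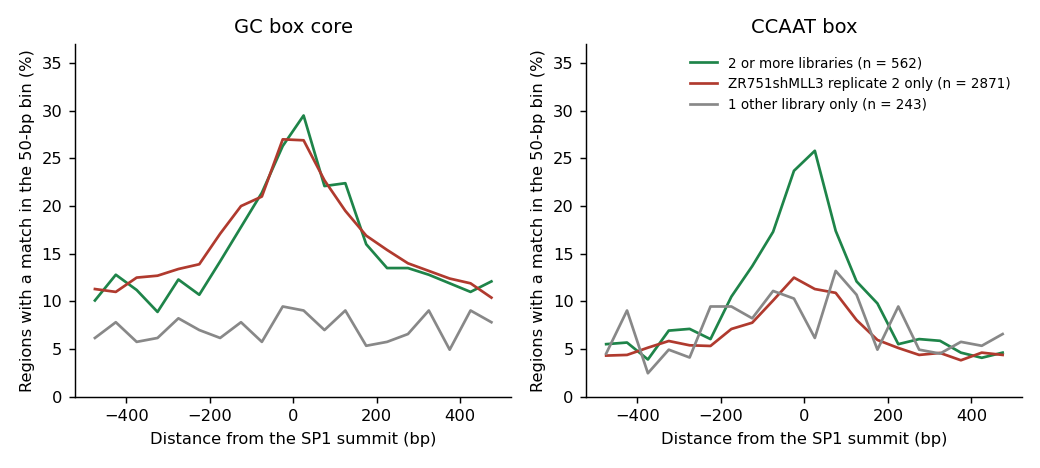
Percentage of SP1 promoter regions with a GC box core (left) or a CCAAT box (right) inside each 50-bp bin, by distance of the bin from the SP1 summit in genome orientation, for regions in 2 or more libraries, in ZR751shMLL3 replicate 2 only and in 1 other library only. The GC box core peaks at 29.5% and 27% in the first 2 groups, whereas the CCAAT box peaks at 25.8% in the first and 12.5% in the second.

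At the canonical start sites, which do not depend on where the SP1 summit fell, the GC box core was within 100 bp in 69.4% of member genes and in 53.7% of those of all 19785 protein-coding genes. Among other genes with a mean FPKM of at least 1 it was in 66.7%. The CCAAT box was in 34.4% of member windows, 25.3% of all and 20.8% of other expressed genes, and both elements together in 23.4%, 12.1% and 11.8%. The ETS core CCGGAAG was in 18%, 11.2% and 15.2%, and the YY1 core AAGATGGC in 6.68%, 3.75% and 5.01%. TATAAA went the other way, in 2.61% of member windows, 6.68% of all and 3.26% of other expressed genes. The long GC box GGGGCGGGG was in 23.5%, 18.1% and 24.2%. Thus member start sites were close to those of other expressed genes in their GC boxes and above them in CCAAT boxes. For the 940 genes with a region that was not in ZR751shMLL3 replicate 2 alone, the GC box core was in 66.6% and the CCAAT box in 41.8%. All of these motifs were searched as exact letters on both strands, and the long GC box contains the core.

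Less common motifs gave small shares. In the start site windows, the CRE (TGACGTCA) was in 3.16% of member genes, 2.03% of all genes and 2.42% of other expressed genes. The NRF1 half-site GCATGCGC was in 3.98%, 2.98% and 3.79%, and the E-box CACGTG in 7.12%, 5.64% and 6.79%. The AP-1 site TGACTCA was in 1.04%, 2.15% and 1.7%, and the forkhead site TGTTTAC in 0.772%, 1.26% and 1.22%.

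Genes with an SP1 promoter region were expressed at higher levels than the rest in both cell lines. Their median was 18.1 and 15.7 FPKM in the ZR751shLucif libraries and 15.5 and 16 in the ZR751shMLL3 libraries, over the 3893 member genes with an FPKM value. The 14091 other protein-coding genes had medians of 1.24, 1.12, 1.1 and 1.19. In each library 93.6% to 94.1% of member genes reached 1 FPKM, and 50.8% to 51.6% of the others did. FPKM is scaled to length, but no test was run on this difference, since genes are not replicates. In bulk RNA, fewer cells of a type and less RNA per cell cannot be told apart.

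By kind of region, the level was lowest for regions in a single library other than ZR751shMLL3 replicate 2. The median of the mean FPKM was 20.7 for genes of regions in 4 libraries, 17.5 in 3, 19.8 in 2 and 16.5 in ZR751shMLL3 replicate 2 alone. It was 11.8 in 1 other library only, where 78.2% of genes reached 1 FPKM. For the 940 genes with a region that was not in ZR751shMLL3 replicate 2 alone it was 16.8, close to the 16.6 of all members. The share of genes with a region rose with expression at every step, from 0.889% in the lowest decile to 48% in the highest. For regions in 2 or more libraries it went from 0.111% to 8.84%. Of genes with a mean FPKM under 1, 3.28% were members, and of those at or above it, 33.5%.

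**Figure D4:**
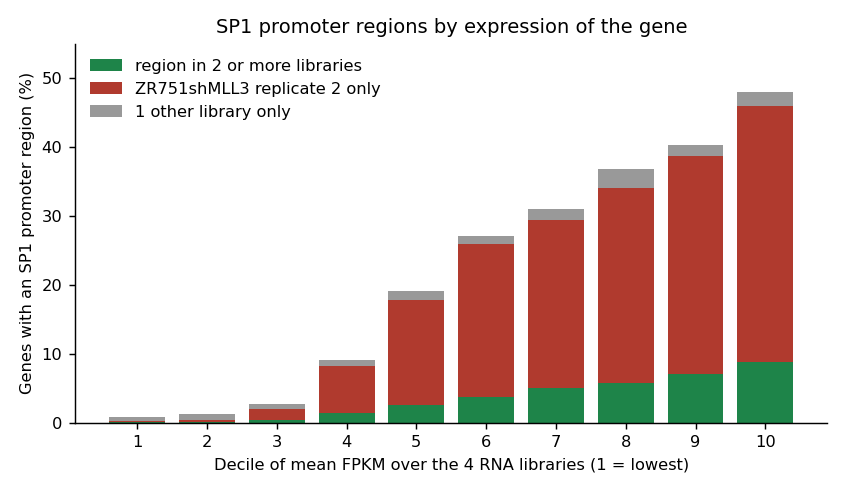
Percentage of protein-coding genes with an SP1 promoter region (vertical axis) in each decile of mean FPKM over the 4 RNA libraries; bar segments split the genes by the libraries that held the region. The total goes from 0.889% to 48%, and the segment of regions in 2 or more libraries from 0.111% to 8.84%.

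Gene functions were described with 20 lists, beside the 21% of all protein-coding genes and 33.5% of expressed genes that were members. The highest shares were in chaperones (20 of 30 genes, 66.7%), splicing factors (36 of 59, 61%), cytosolic ribosomal proteins (49 of 86, 57%), cholesterol synthesis and uptake (14 of 25, 56%), AP-1 and immediate early genes (10 of 18, 55.6%) and translation initiation factors (31 of 56, 55.4%). DNA replication and repair genes (28 of 55, 50.9%) and aminoacyl-tRNA synthetases (8 of 16, 50%) followed. Olfactory receptors (2 of 388, 0.515%) and keratins (1 of 55, 1.82%), most of which are silent in these cells, were lowest. These lists differ in expression as well, with 95.2% of ribosomal protein genes and 0.275% of olfactory receptor genes at 1 FPKM or above.

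In between were mitochondrial ribosomal proteins (35 of 78, 44.9%), H3K4 methyltransferase complexes (8 of 18, 44.4%), proteasome subunits (16 of 39, 41%), G1/S regulators (11 of 27, 40.7%), oxidative phosphorylation subunits (30 of 86, 34.9%) and replication-dependent histones (20 of 65, 30.8%). Near the share of all genes were luminal transcription factors (6 of 20, 30%), SP and KLF factors (7 of 27, 25.9%), ZNF genes (128 of 508, 25.2%) and classical estrogen-induced genes (6 of 25, 24%). Of the 20 lists, 18 were above the share of all genes and 13 above that of expressed genes. Of the 49 ribosomal protein genes, 43 were members through ZR751shMLL3 replicate 2 alone, as were 4 of the 8 H3K4 methyltransferase genes. The same held for 15 of 20 chaperones, 27 of 36 splicing factors, 27 of 31 translation initiation factors and 11 of 14 cholesterol genes. Among all 4145 member genes it held for 3205. Without those regions, 16 of the 20 lists were above the 4.75% of all genes that were then members. That share includes silent genes, and the lists were not compared with expressed genes for these remaining regions.

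Several members of these lists ranked high in more than 1 library. Among translation genes, RPS19, a protein of the small ribosomal subunit, ranked 30705, 4268, 116 and 193 (ZR751shLucif replicates 1 and 2, then ZR751shMLL3 replicates 1 and 2), and RPL4, of the large subunit, shared its region with ZWILCH and ranked 53232, 61768, 19 and 463. EIF4A2, a helicase of translation initiation, was in the top 5000 of 3 libraries (1340, not listed, 2321 and 969), and EIF4A1 in that of ZR751shMLL3 replicate 2 only (745). Among aminoacyl-tRNA synthetases, FARSB and TARS1 were in the top 5000 of ZR751shMLL3 replicate 2 only (1172 and 4568), with peaks beyond rank 50000 in both ZR751shLucif libraries. These 2 ribosomal protein regions thus ranked higher in both ZR751shMLL3 libraries than in the ZR751shLucif libraries, while EIF4A2 did not follow the cell line.

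Genes of mitochondria, the proteasome and chaperones gave mixed orders. MRPL4, of the mitochondrial ribosome, ranked 24312, 47, 113 and 666, and MRPL32, whose region also lies next to the proteasome gene PSMA2, ranked 46827, 6720, 1762 and 573. NDUFA11, of complex I, ranked 3746, 1342, 22475 and 4538, and COX6B1, of cytochrome c oxidase, 161, 262, 67412 and 289. The COX6B1 region was therefore weakest in ZR751shMLL3 replicate 1. PSMC5, a proteasome ATPase, was in the top 5000 of ZR751shMLL3 replicate 2 only (917). CCT2, of the TRiC chaperonin, ranked 3943, 2156, 40816 and 719, and STIP1, which links HSP70 and HSP90, 1420, 261513, 29946 and 464.

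Among genes of the nucleus, HNRNPUL1 ranked 101, 46671, 7614 and 207 and HNRNPL 65023, 8244, 366 and 120, both RNA-binding proteins. ZNF143, an activator that itself binds many promoters, ranked 39, 6974, 55 and 9. H2AC20 and H2BC21, a divergent pair of histone genes, shared a region that ranked 57, 41 and 813 in ZR751shLucif replicate 2 and ZR751shMLL3 replicates 1 and 2 and was not listed in ZR751shLucif replicate 1. GINS4, of the replicative helicase, ranked 68, 245, 20 and 2. The mismatch repair gene PMS2 ranked 5710, 175, 1532 and 650. The GINS4 region was in the top 5000 of all 4 libraries and the PMS2 region in that of 3.

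Of cell cycle and signaling genes, CDC25A and CDK4, both of G1/S progression, ranked 1568 and 630 in ZR751shMLL3 replicate 2, and CDK4 also ranked 2867 in ZR751shLucif replicate 1. FOSB ranked 258 and 286 in the ZR751shMLL3 libraries and 13485 and 44609 in the ZR751shLucif libraries, although its RNA was at 0.251 to 0.943 FPKM. EGR2, at 0.102 to 0.408 FPKM, ranked 1869 in ZR751shLucif replicate 1 and 1031 in ZR751shMLL3 replicate 2. An SP1 region was thus also found at start sites of immediate early genes with little RNA. Both olfactory receptor members, OR1B1 (rank 3034 in ZR751shLucif replicate 1) and OR2L2 (rank 4003 in ZR751shMLL3 replicate 1), were in 1 library only, and both genes were listed at 0 FPKM in all 4 RNA libraries.

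Of the MLL3-related lists, SETD1A, the catalytic subunit of another H3K4 methyltransferase complex, ranked 489, 1659, 12588 and 175, and RBBP5, a subunit shared by these complexes, ranked 3670 and 842 in ZR751shLucif replicate 1 and ZR751shMLL3 replicate 2. ELF3, an epithelial ETS factor, ranked 820, 15958, 181 and 607, and TBX3 ranked 1664 in ZR751shMLL3 replicate 2. Among estrogen-induced genes, RARA ranked 3575 in ZR751shLucif replicate 1 and 4366 in ZR751shMLL3 replicate 2, and CTSD 3508 in the latter. KRT19 was the keratin that was a member, at rank 3090 in ZR751shMLL3 replicate 2. In cholesterol synthesis, CYP51A1 ranked 76, 15285, 32 and 52 and PMVK 164, 51902, 1439 and 744. CYP51A1 was thus within the 76 top peaks of 3 libraries.

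RNA of member genes was then compared between the cell lines. Of the 4145 member genes, 3582 passed the filter of a mean log2(FPKM + 0.5) above 1 and were tested with limma together with all 11134 rows that passed. At an adjusted p of 0.05, 0 member genes passed, beside 1 of 11134 rows (0.00898%), the small nucleolar RNA SNORD104, named after its value was seen. At an unadjusted p under 0.05, 83 member genes (2.32%) were higher in ZR751shMLL3, beside 3.67% of all rows, and 129 (3.6%) were lower, beside 4.31%. Both ZR751shMLL3 libraries were above both ZR751shLucif libraries for 583 member genes (16.3%), beside 17.6% of all rows, and below for 943 (26.3%), beside 25.3%. The median log2 fold change of the members was -0.12, and that of all rows -0.10. These shares lay near or below the background in both directions.

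By kind of region, the median log2 fold change was -0.02 for genes of regions in 4 libraries (52 tested), -0.08 in 3 (144), -0.09 in 2 (393), -0.12 in ZR751shMLL3 replicate 2 alone (2814) and -0.19 in 1 other library only (179). In the last group both ZR751shMLL3 libraries were below both ZR751shLucif libraries for 34.1% of genes, beside 25.3% of all rows. This share was 23.1%, 25.7% and 24.2% in regions of 4, 3 and 2 libraries, and 26.2% in ZR751shMLL3 replicate 2 alone. No test of the difference between kinds was run. The median was -0.11 for all genes with a region that was not in ZR751shMLL3 replicate 2 alone, of which 0 passed. The quartiles of all members were -0.38 and 0.16. Without ZR751shLucif replicate 1 the median of the members was 0.00 and 0 genes passed, beside 7 of 11109 rows (0.063%). Without ZR751shLucif replicate 2 it was -0.23 and 381 of 3583 members (10.6%) passed, beside 1333 of 11160 rows (11.9%). That fit has a lone control library, assumed to vary like the ZR751shMLL3 libraries, which alone supply the spread.

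The 4 largest fold changes in each direction, among member genes whose cell lines did not overlap, did not pass the test. QSOX1, a secreted thiol oxidase, had 74.8 and 98.3 FPKM in the control line and 315 and 226 in the KD line. APLP1, of the amyloid precursor family, had 22.5 and 24.9 against 66 and 74.1 FPKM, with a log2 fold change of 1.54 (SE 0.266, limma adjusted p = 0.317). EFEMP2, an extracellular matrix protein, had 3.23 and 1.26 against 8.22 and 5.62 FPKM. STMN3, a microtubule-destabilizing protein, had 21.7 and 32 against 70.1 and 67.5 FPKM. In all 4 genes the lowest ZR751shMLL3 library was above the highest ZR751shLucif library.

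In the other direction, EIF2A, an initiation factor, had 59.6 and 24.5 FPKM in the control line and 7.48 and 9.84 in the KD line (log2 fold change -2.09, SE 0.452, limma adjusted p = 0.418). SELENOP, a selenium carrier, had 67.3 and 63.8 against 11.9 and 34.2 FPKM. GLUL, glutamine synthetase, had 291 and 193 against 102 and 68.8 FPKM, and HNRNPH1, a splicing regulator, 398 and 120 against 97.5 and 71.4. Over the 8 genes the adjusted p ran from 0.317 to 0.613. Of these 8, APLP1 was in the top 5000 of 3 SP1 libraries and EFEMP2 of 2, and the other 6 were members through ZR751shMLL3 replicate 2 alone, at ranks 502 (GLUL) to 4447 (QSOX1).

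Of the 8 genes at the top of all 4 SP1 lists, none passed the test. Over all tested genes of regions in 4 libraries, 25 had a higher and 27 a lower mean in ZR751shMLL3. That is 48.1% higher, beside 40.9% of all rows. CIC had 14.5 and 18.6 FPKM in the control line and 33.5 and 23.7 in the KD line (log2 fold change 0.76, SE 0.309, limma adjusted p = 0.613). FH had 119 and 93.9 against 69.3 and 77.8 FPKM (log2 fold change -0.52). OS9 had 146 and 126 against 189 and 207 FPKM (0.54), and ZNF687 28.4 and 35.2 against 39.5 and 38.7 (0.30). The cell lines did not overlap in these 4 of the 8 genes, and 3 of the 4 were higher in ZR751shMLL3. Among all rows, both ZR751shMLL3 libraries lay above both ZR751shLucif libraries for 17.6% and below them for 25.3%. SLC25A44 had 32.4, 19.8, 25.7 and 22.7 FPKM and EVI5L 7.99, 5.93, 7.19 and 8.13, and CDCA2 5.31, 13.9, 11.3 and 9.07. The cell lines overlapped in these genes and in H4C16, which is given with the histones. KDM2A, the region of both ZR751shLucif libraries, had 89.2 and 67.9 against 95.5 and 102 FPKM. VAMP1, the first region of both ZR751shMLL3 libraries, had 18.3, 3.71, 4.7 and 9 FPKM, and its cell lines overlapped.

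Several lists shifted together, and in those given here most of the shift rested on 1 RNA library. Of all 11134 rows tested, 6577 were lower in ZR751shMLL3, with a median log2 fold change of -0.10. Of the 48 cytosolic ribosomal protein genes tested, 47 were lower in ZR751shMLL3 and 0 passed the test, with a median log2 fold change of -0.42. Their median was 1842 FPKM in ZR751shLucif replicate 1, 1157 in ZR751shLucif replicate 2 and 1049 and 1074 in the ZR751shMLL3 libraries. Without ZR751shLucif replicate 1 the median fold change was -0.06, with 28 of 48 lower. Splicing factors (31 of 35 lower, median -0.44), chaperones (16 of 18, -0.42) and translation initiation factors (27 of 29, -0.41) gave -0.16, -0.03 and -0.09 without that library. In that setting 23 of 35, 10 of 18 and 17 of 29 were lower. In these lists at most 4 genes had an unadjusted p under 0.05, and 0 passed after adjustment. The 4 were splicing factors, of 35 tested, and all were lower, beside 4.31% of all rows in that direction.

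Replication-dependent histones gave the opposite order. Of 18 tested, 17 were higher in ZR751shMLL3 (median log2 fold change 1.42) and 0 passed. Their median FPKM was 1.49 in ZR751shLucif replicate 1, 70.9 in ZR751shLucif replicate 2, and 24.9 and 38.5 in the ZR751shMLL3 libraries, so the ZR751shLucif libraries lay on both sides of ZR751shMLL3. Without ZR751shLucif replicate 1 all 18 were lower, with a median of -1.18, and without ZR751shLucif replicate 2 all 18 were higher, with a median of 4.04. H4C16 had 0.329, 118, 43.8 and 51.4 FPKM in the same order.

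**Figure D5:**
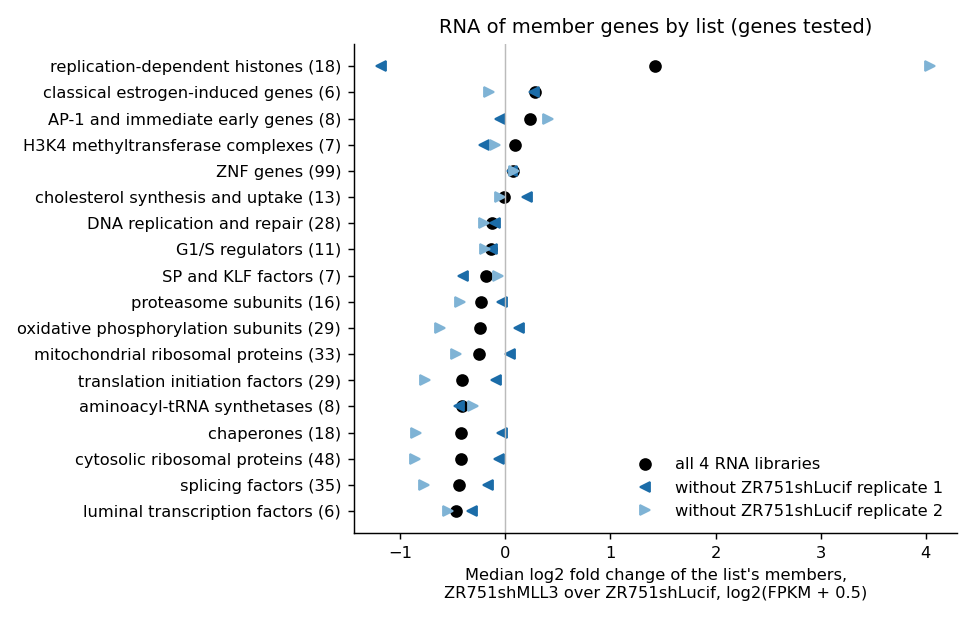
Median log2 fold change of RNA, ZR751shMLL3 over ZR751shLucif, on the log2(FPKM + 0.5) scale (horizontal axis) for the member genes of each list with at least 6 genes tested (number in brackets); circles use all 4 RNA libraries and triangles leave out ZR751shLucif replicate 1 or 2. Histones move from 1.42 to -1.18 or 4.04 and cytosolic ribosomal proteins from -0.42 to -0.06 or -0.86, whereas ZNF genes stay between 0.06 and 0.08.

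Among the other lists, luminal transcription factors were lower in 6 of 6 tested (median -0.47) and in 5 of 6 without ZR751shLucif replicate 1 (-0.32), and aminoacyl-tRNA synthetases in 7 of 8 (-0.41) and 8 of 8 (-0.44). ZNF genes had 44 of 99 lower (0.07), and DNA replication and repair genes 20 of 28 (-0.13). Among all rows, 6577 of 11134 were lower (-0.10). Mitochondrial ribosomal proteins (25 of 33 lower, -0.25), oxidative phosphorylation (22 of 29, -0.24), proteasome (12 of 16, -0.23), SP and KLF (5 of 7, -0.18), G1/S (8 of 11, -0.14) and cholesterol genes (7 of 13, -0.01) were at or below 0. AP-1 and immediate early genes (3 of 8 lower, 0.24), classical estrogen-induced genes (2 of 6, 0.28) and H3K4 methyltransferase genes (3 of 7, 0.09) were above. Several of these directions changed with 1 library: without ZR751shLucif replicate 1 the median was 0.05 for mitochondrial ribosomal proteins, 0.13 for oxidative phosphorylation, 0.21 for cholesterol genes, -0.05 for AP-1 and immediate early genes and -0.20 for H3K4 methyltransferase genes, and without ZR751shLucif replicate 2 it was -0.15 for estrogen-induced genes. No gene of any list passed the test. In the higher direction, the most list members with an unadjusted p under 0.05 were 2 of 13 cholesterol genes, beside 3.67% of all rows.

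H3K4me1, the histone mark that MLL3 places, was next compared at the same start sites. H3K4me1 usually flanks active start sites, so the midpoint of a strong peak seldom falls on them. Among the 50000 top H3K4me1 peaks of each library, a peak midpoint lay within 1 kb of a start site of 10.5% and 9.79% of member genes in ZR751shLucif and 7.45% and 7.41% in ZR751shMLL3. The paper reports a large loss of H3K4me1 peaks after KD. With equal numbers of peaks per library, these shares do not measure a change in the amount of the mark. Both ZR751shMLL3 libraries were below both ZR751shLucif libraries, by 2.71 percentage points on average (10.1% ± 0.495 against 7.43% ± 0.0341, SD, n = 2 each, exact permutation test, two-sided, p = 0.33, the smallest possible). Other genes with a mean FPKM of at least 1 gave 7.43% and 7.68% in ZR751shLucif and 6.61% and 5.88% in ZR751shMLL3. In genes with a region that was not in ZR751shMLL3 replicate 2 alone, the shares were 14.5%, 12.6%, 10.9% and 9.04%. The order of the cell lines was the same in all 3 sets, and whether the sets differ in it was not tested. With fewer and with more of the top peaks the difference for the members was -1.42 and -6.03 percentage points.

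ERα peaks at these start sites were few. Among the 5000 top ERα peaks of each library, 34 and 88 of the 4145 member genes had a peak in ZR751shLucif (0.82% and 2.12%) and 33 and 13 in ZR751shMLL3 (0.796% and 0.314%). The ZR751shMLL3 values were below the ZR751shLucif values, with means of 0.555% ± 0.341 and 1.47% ± 0.921 (SD, n = 2 each, exact permutation test, two-sided, p = 0.33). The difference rested on ZR751shLucif replicate 2, since it went from -0.917 to -0.265 percentage points without that library. Other genes with a mean FPKM of at least 1 had 0.453%, 1.1%, 0.371% and 0.302%, so that ZR751shLucif replicate 2 was also the highest there. For genes with a region that was not in ZR751shMLL3 replicate 2 alone the values were 0.745%, 2.55%, 1.06% and 0.213%, and the cell lines overlapped.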

How the data were processed

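ChIP-seq reads were aligned by the authors to hg19 with BWA 0.7.5a-r405 (version per the submitters' processing notes), duplicates were removed, and peaks were called with SPP in each library. The deposited lists give a signal per peak, on a scale of its own in each list and used only to rank its peaks, and the −log10 of the FDR. RNA values are the deposited FPKM per gene (TopHat2, Cufflinks and Cuffnorm 2.2.1), of which 96.1% of rows were matched to a symbol. Depth is not in these files. Start sites (55869) and sequences came from GENCODE v44 (lifted to GRCh37) and the GRCh37 genome, which has the coordinates of hg19. Groups were taken from the sample labels.

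Regions were merged and annotated in Python 3.11.15, with pandas 2.3.3, pysam 0.24.0 and scipy 1.17.1. Tests of RNA used limma 3.58.1 on log2(FPKM + 0.5), for rows with a mean above 1 (Benjamini-Hochberg adjustment, threshold 0.05), without a replicate block. Shares were compared with exact permutation tests. The steps were tested on simulated data. A region without a listed peak counted as last in that list. Genes were named by mean rank over the libraries, by presence in 1 cell line or library, by the largest fold changes without overlap, and as the 2 best-ranked of each list. Members and lists were chosen with earlier results of these data known. The values without regions of ZR751shMLL3 replicate 2 alone, and the comparison of gene lists with expressed genes, were chosen after seeing the data. Input libraries were not used here.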

Additional observations from a re-analysis of the deposited data

How the results depend on the processing

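The count of promoter regions was 1757 with the 2000 top peaks and ran from 811 to 3612 when 1 SP1 library was left out, the lowest without ZR751shMLL3 replicate 2. Other peak numbers, overlaps, distances and positions kept it within 1.5 times of 3676. Regions in every library numbered 48 to 97 with 1 library left out, and 0 at an FDR of 0.01, since no ZR751shLucif peak reached it. Of member genes, 93 (2.6%) passed when the leading component of the residuals was a covariate, beside 4.25% of all rows, and 0 to 381 when 1 RNA library was left out. The 381 (10.6%, beside 11.9% of all rows) came without ZR751shLucif replicate 2, and the cause was not tested. Their median log2 fold change ran from -0.23 to 0.00, and lost its direction (0.00) without ZR751shLucif replicate 1. Median FPKM was 18.7 with the 2000 top peaks and 19.6 for regions in at least 2 libraries. In windows of 200 bp on each side the GC box core was in 84.4% and the CCAAT box in 48.1% of member start sites, and within 100 bp, without regions of ZR751shMLL3 replicate 2 alone, in 66.6% and 41.8%. Replicate numbers do not pair the RNA libraries (correlation of deviations 0.0374 over 11134 genes, 2 pairs). With a replicate block 0 member genes and 33 of all 11134 rows (0.296%) passed, and the median was -0.12. The differences in promoter, H3K4me1 and ERα shares kept their direction under every alternative tried, in a design that cannot reach the threshold.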
